A study of Mus musculus with 28 samples.

Results

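The 76 matrix, integrin and cadherin adhesion genes described here are the named genes on the arrays whose symbols mark them as collagens, laminin chains, integrins, cadherins or protocadherins, with Itgam left out. They are 76 of 8726 named genes: 25 collagens, 6 laminin chains, 17 genes with an integrin name, 14 cadherins and 14 protocadherins. The measured tissue was the midbrain of male BALB/c mice. Mice of the tumour group were given CT-26.WT colon carcinoma cells of mouse origin (1000000 in 300 µl PBS, under the skin) at 8 weeks of age, and the control mice received 300 µl PBS alone at the same age. Both groups were killed 18, 72 or 192 h later. Each array held tumour-group RNA in one dye and PBS-group RNA in the other, so every spot gives a log2 ratio of tumour over PBS. Whether each replicate came from 1 animal or from several is not stated, and p-values therefore measure the spread between these samples. The 21 arrays used hold 11 biological replicates, of which 5 belong to 18 h, 2 to 72 h and 4 to 192 h.

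Collagens and laminins are secreted chains that assemble into fibrils, networks and basement membranes around cells. Integrins are paired alpha and beta chains in the cell membrane that bind this matrix on the outside and the actin cytoskeleton on the inside. Cadherins and protocadherins hold cells to each other, and in the brain many members take part in sorting neurons and in building synapses. In adult brain the fibrillar matrix is sparse outside the meninges and vessels, and the basement membrane of the vessels carries much of the collagen IV and laminin. Bulk tissue was measured, so fewer cells of a type and less RNA per cell cannot be told apart.

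The arrays differed in quality, and dye orientation moved with the ratios. Between 25.7% and 97.9% of the spots on an array had a signal in both channels, and between 11 and 73 of the 76 adhesion genes had a ratio. The 2 channels of an array correlated across spots at a Spearman rho of 0.578 to 0.983, except at -0.008 on 1 array of the third replicate at 72 h. The 4 replicates of polyA RNA (replicates 1 and 2 at 18 h and at 192 h) were each hybridised in 1 dye orientation and the 7 replicates of total RNA in both. The labels name Cy3 first, and the scanner files call their channels A and B. Reading A as Cy3 gave ratios whose signs matched the authors' deposited ratios, so the direction tumour over PBS is likely and not certain, and if it were reversed every sign below would turn and the PBS ranks would be those of the tumour channel. Neuronal and oligodendrocyte marker probes were bright in PBS channels, with median percentiles of 83.5 and 89.7, and the midbrain dopamine neuron markers had a median of 48.7. These 7 dopamine neuron markers ran from 33.1 (En1) to 80.7 (Pitx3), with Th, the marker for dopamine synthesis, at percentile 42.5. The 3 forebrain and hippocampus markers on the arrays also had a median of 48.7, with Neurod6 at 89.2, Prox1 at 48.7 and Wfs1 at 38.8.

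The adhesion genes were a dim group on these arrays. The percentile of each gene's PBS spot among the named probes with a signal was averaged within a replicate, and the median over replicates was taken. Its median over the 76 genes was 37.2, against 45.1 over all named probes. It was 34.3 for the collagens, 39.2 for the laminins, 37.5 for the integrin-named genes, 38.8 for the cadherins and 37.3 for the protocadherins. A spot's brightness also depends on how well its probe binds, so these ranks describe spots and do not order the genes by their mRNA. Of the 76 genes, 17 lay above percentile 50 and 11 below percentile 25. The shares of all named probes beyond these marks were not computed, so these counts are not a comparison.

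The highest ranks belonged to genes of cell-cell contact. Cdh13, which encodes the GPI-anchored T-cadherin, had a median percentile of 86.7, with replicates between 37.6 and 99.4. The protocadherin Pcdh10 followed at 78.2, with replicates between 42.2 and 93.9, then the type II cadherin Cdh20 at 70.2. Among the matrix and integrin genes the highest were Itgav, the alpha chain of vitronectin-binding integrins, at 68.9, and Lama5, a laminin chain of vessel basement membranes, at 68.5. The highest collagen was Col1a2, a chain of type I collagen, at 58.5. At the low end, Itga8 had a median of 12.8, with replicates between 0.5 and 41.1.

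**Figure D1:**
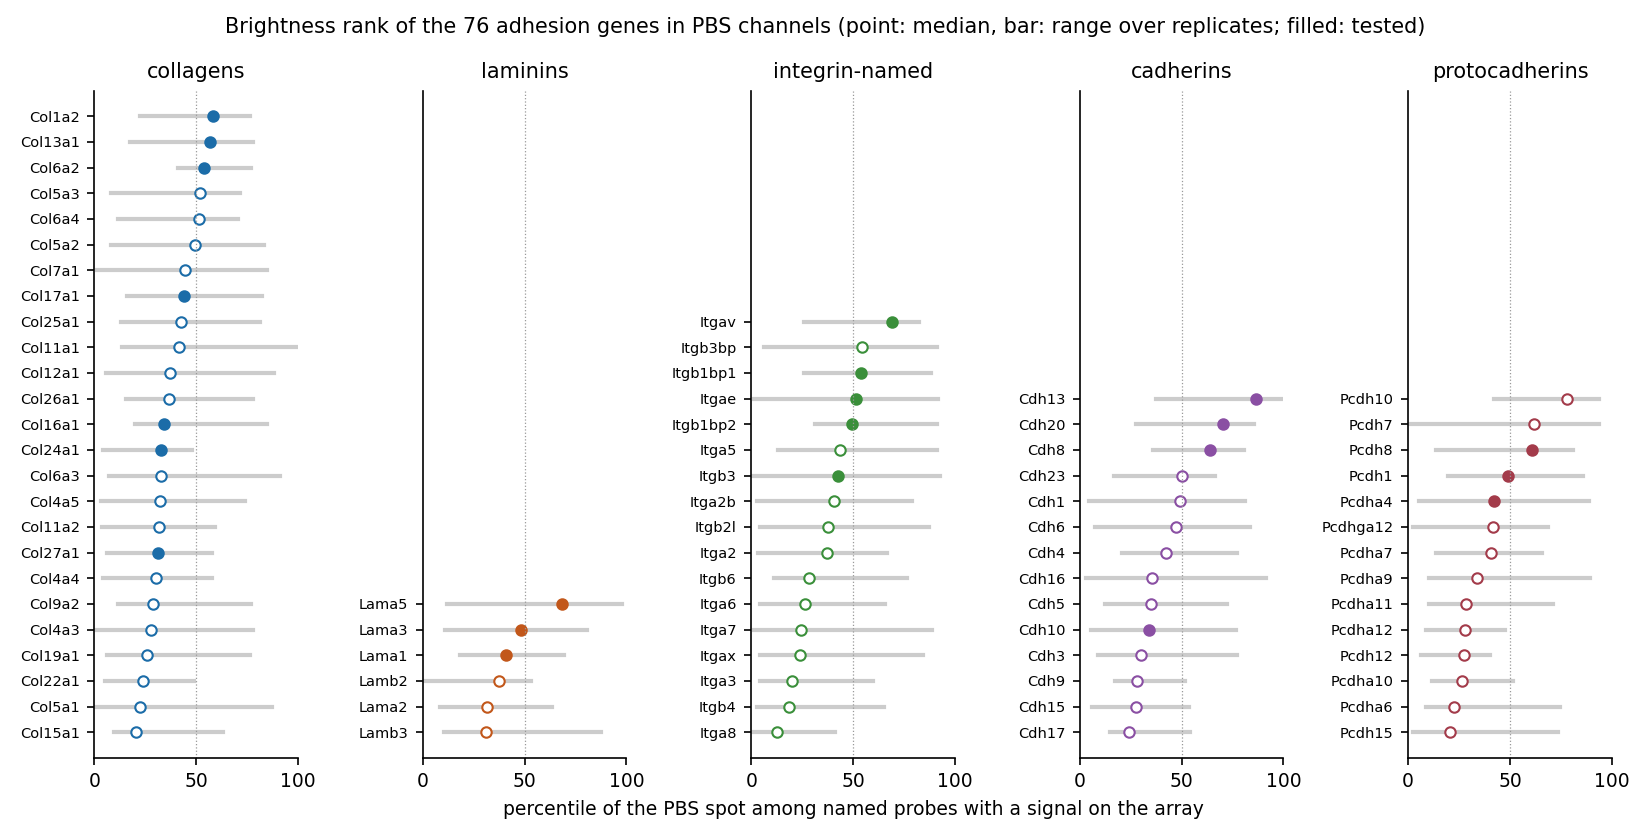
Percentile of the PBS spot of each of the 76 adhesion genes, by family. Points are medians over replicates, bars run from the lowest to the highest replicate, and filled points are the 22 genes that could be tested. Bars are long in every family, and Cdh13, at 86.7, stands highest.

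Structural classes within the families had different spot ranks. The 8 clustered protocadherins, which share constant exons so that probes may not tell them apart, had a median percentile of 31.1 and none above 42.3. The 6 non-clustered protocadherins had a median of 54.7. The 4 network and basement membrane collagens, among them the collagen IV chains Col4a3, Col4a4 and Col4a5, lay between 20.5 and 32.0. The 3 chains of the microfibril-forming type VI collagen had a median of 51.5. The 10 integrin alpha chains had a median of 31.8. The 3 integrin-binding proteins Itgb1bp1, Itgb1bp2 and Itgb3bp, which carry an integrin name and are not integrins, had a median of 53.7. These classes were drawn up with the values known and carry no test. In the reference assembly 10 of the 14 protocadherin genes and 7 of the 14 cadherin genes share 1 chromosome each.

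The ranks varied widely between replicates. The gap between the lowest and the highest replicate had a median of 64.1 percentile points over the 76 genes, from 33.8 to 93.0. The median percentile was 30.1 in replicates of polyA RNA and 41.4 in those of total RNA, against 44.0 and 46.3 over all named probes. Of the 76 genes, 54 ranked higher in total RNA and 22 in polyA RNA. The dye mattered too: a PBS signal was found for a median of 75 adhesion genes on the 9 arrays with PBS in Cy3 and for a median of 51 on the 12 arrays with PBS in Cy5. The part of dye and RNA type in these ranks was not tested.

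A ratio could be tested for 22 of the 76 genes. Of the others, 36 were among the dimmest 33.3% of probes, and 18 were bright enough but had values in too few replicates (fewer than 3 at 18 or 192 h, or fewer than 2 at 72 h). Of all 8997 named probes, 4494 were tested, 2996 were dim and 1507 had too few values, so a smaller share of the adhesion genes was tested. The 22 comprise 7 collagens, 3 laminin chains, 5 integrin-named genes, 4 cadherins and 3 protocadherins. The linear model was fitted over all 4494 probes that passed these filters, with 3 time means and a dye term, and p-values were adjusted over all of them.

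No adhesion gene passed the test of tumour over PBS at any time. In limma's test, 0 of the 22 genes passed an adjusted p of 0.05 at 18 h, at 72 h or at 192 h, with 0% of all probes passing at each time. Some probes passed at 72 h without replicate 4, but this leaves 1 replicate there. Its spread is then not measured, so their number is not given. The lowest adjusted p of an adhesion gene at these times was 0.871, 0.601 and 0.9996. At an unadjusted p under 0.05, 2 of the 22 genes lay higher and 0 lower at 18 h, against 2.83% and 2.56% of all probes, or 5.38% in either direction. At 72 h and at 192 h the unadjusted count was 0 of 22, against 8.63% of all probes at 72 h (4.74% higher and 3.89% lower) and 1.05% at 192 h. For the mean of the 3 times, 0 genes passed after adjustment (0% of all probes) and 1 gene at an unadjusted p under 0.05 (5.52% of all probes).

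The fit bounded how large a change could have gone unseen. The 95% interval of the fitted log2 ratio lay within 1 on either side of 0 for 22 of 22 genes at each time. It lay within 0.5 on either side for 14 genes at 18 h, 4 genes at 72 h and 19 genes at 192 h. The median standard error (SE) of the 22 genes was 0.13 at 18 h and 0.18 at 72 h, where 2 replicates remained. These intervals are for single genes and are not adjusted for their number.

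The genes as a group lay close to 0. Their median fitted log2 ratios at 18, 72 and 192 h were -0.04, -0.07 and -0.02, against 0.00, 0.04 and 0.00 over all probes. Above 0 lay 8 of 22 genes at 18 h (49.9% of all probes), 10 at 72 h (57.3%) and 9 at 192 h (48.8%). At 18 h, 2 genes were above 0 and 1 was below 0 in every replicate with a value, against 6.3% and 3.89% of all probes. At 72 h, with 2 replicates, these counts were 6 and 11, against 30.4% and 22%, and at 192 h they were 1 and 2, against 3.76% and 5.67%. Without the array whose channels did not correlate, the counts at 72 h were 4 above and 9 below, against 27.8% and 22.5% of all probes, and the median ratio of the genes at 72 h was 0.02.

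**Figure D2:**
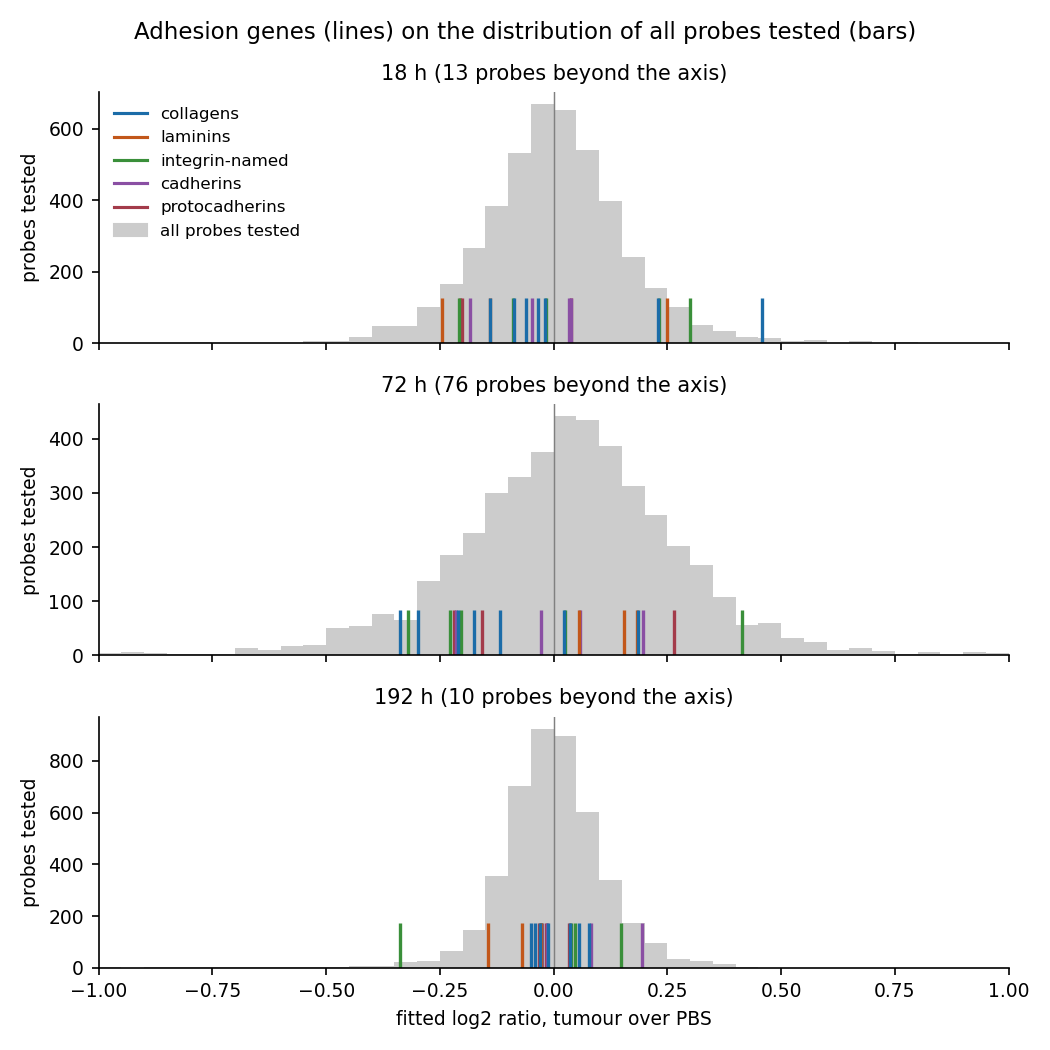
Fitted log2 ratios of tumour over PBS at 18, 72 and 192 h. Grey bars count all 4494 probes tested and coloured lines mark the 22 adhesion genes by family. The lines lie inside the body of the bars, with Col27a1 (0.46) farthest right at 18 h and Itgae (-0.34, but -0.02 without replicate 2) farthest left at 192 h.

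Among the collagens tested the largest fitted ratio at 18 h was that of Col27a1, a fibrillar collagen of cartilage. Its log2 ratios at 18 h were 0.38, 0.29, 0.88 and 0.39 in replicates 2, 3, 4 and 5, with no value in replicate 1. All 4 lay above 0, and replicate 4 stood apart. The fitted value was 0.46 (SE 0.14, n = 4; unadjusted p = 0.00758, adjusted p = 0.871). Without replicate 4 it was 0.28. At 72 h the ratios were 0.23 and 0.14, and at 192 h they were 0.37, 0.05 and -0.08. Of these, 0.23 became -0.16 without the array whose channels did not correlate. The mean of Col27a1 over the times, 0.24 (SE 0.10), was the 1 that had an unadjusted p under 0.05 (0.0323, adjusted p = 0.858). For the mean no gene passed that unadjusted threshold without that array, without replicate 4 at 18 h or without replicate 3 at 192 h.

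Of the other fibrillar collagens, Col24a1 and Col1a2 were tested. Col24a1, a fibrillar collagen of developing bone, had 0.29, 0.56, 0.37 and -0.03 at 18 h, below 0 in 1 of 4 replicates. At 72 h its ratios were -0.25 and -0.10, and at 192 h they lay on both sides of 0, between -0.44 and 0.31. Its 18 h value of 0.23 (SE 0.12) had an adjusted p of 0.871, and the F-test over the 3 times gave an adjusted p of 0.902. Col1a2, the type I chain, spread from -0.51 to 0.37 over the 5 replicates at 18 h, with a fitted value of -0.06 (SE 0.13).

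Lower values of collagens at 72 h came from 2 replicates only. Col17a1, a membrane-spanning collagen of epithelial anchoring junctions, had -0.30 in both replicates, with a fitted value of -0.30 (SE 0.16, adjusted p = 0.623). In replicate 4 the -0.30 averaged -0.61 with tumour RNA in Cy5 and 0.01 with it in Cy3. At 18 h Col17a1 lay above 0 in 3 of 4 replicates. Col16a1, which sits on the surface of fibrils, had -0.66 and -0.02 at 72 h, so that 1 replicate set its fitted value of -0.34 (SE 0.22, adjusted p = 0.678). Without the array whose channels did not correlate the fitted values were -0.22 for Col17a1 and -0.09 for Col16a1. Without replicate 3 that of Col16a1 was -0.02, and with median centring that of Col17a1 was -0.04. Of the 7 collagens tested, 5 lay below 0 in both replicates at 72 h and 1 above, beside 22% and 30.4% of all probes. Without the array whose channels did not correlate, replicate 3 turned from -0.22 to 0.06 for Col1a2 and from 0.23 to -0.16 for Col27a1. Neither of these then had 1 sign in both replicates.

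Of the 3 laminin chains tested, 1 had a fitted ratio above 0 at 18 h, 3 at 72 h and 0 at 192 h. Lama1, a laminin chain of early basement membranes, had 0.14, 0.47, 0.15 and 0.32 in 4 replicates at 18 h, all above 0. The fitted value was 0.25 (SE 0.11, n = 4; unadjusted p = 0.0470, adjusted p = 0.871), or 0.16 without replicate 3. At 192 h it was -0.07 (SE 0.11), with 3 of 4 replicates below 0. At 72 h the replicates were 0.04 and 0.07 for Lama1, 0.17 and 0.14 for Lama3, and 0.39 and -0.02 for Lama5. Lama5 lay below 0 in all 4 replicates at 192 h, at -0.28, -0.27, -0.001 and -0.04, and its fitted value was -0.15 (SE 0.13, adjusted p = 0.9996), or -0.07 without replicate 2 and -0.02 in total RNA alone. Lama3, a chain of epithelial laminin, had -1.10 in replicate 2 at 18 h, while its other replicates lay between -0.14 and 0.30.

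The replicates of the integrin-named genes had a median SD of 0.34 at 18 h and 0.36 at 192 h, against 0.26 and 0.22 over all probes. Itgae encodes the alpha chain by which intraepithelial T cells hold on to E-cadherin. Its ratios at 18 h were 1.52, -0.04, -0.04 and 0.34, so that replicate 2, a polyA RNA sample, alone set its height. At 192 h its 3 values were all below 0, at -0.40, -0.02 and -0.008. The last 2 averaged orientations of opposite sign. With tumour RNA in Cy5 and then in Cy3, replicate 3 gave 0.06 and -0.11, and replicate 4 gave 0.10 and -0.12. The fitted value at 192 h was -0.34 (SE 0.26, adjusted p = 0.9996), lower than 2 of its 3 replicates once the dye term was in the model. It was -0.02 without replicate 2 at 192 h, without replicate 2 at 18 h, or in total RNA alone. Of the T and B cell markers, 4 of 6 were on the arrays, 1 was tested and 0 were called at any time. That 1, the B cell marker Cd79a, had -0.74 and -0.22 at 72 h (fitted value -0.48, unadjusted p = 0.0260, adjusted p = 0.559), where Itgae had -0.50 and -0.14. In replicate 3 at 72 h the untested T cell markers Cd3e and Cd3g had 0.54 and 0.31, and the untested B cell marker Ms4a1 had -0.02. None of these untested markers had a value in replicate 4. The part of T and B cells in the ratio of Itgae was not tested.

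Itgb3 and Itgav encode chains that pair with each other to form a receptor for vitronectin. At 18 h Itgb3 had 0.66, 0.67, -0.02 and 0.21 in 4 replicates, with a fitted value of 0.23 (SE 0.14, adjusted p = 0.913). Itgav had -0.25, -0.21, 0.39, 0.14 and -0.17 at 18 h, with a fitted value of -0.02 (SE 0.11). Both sets of replicates crossed 0. The fitted values at 72 and 192 h were -0.20 and 0.05 for Itgb3 and -0.23 and 0.04 for Itgav. Itgb1bp1, which binds the tail of the integrin beta chain and restrains its activation, was the adhesion gene with the lowest p at 72 h. It had 0.27 and 0.56 there, with a fitted value of 0.41 (SE 0.20, n = 2; unadjusted p = 0.0681, adjusted p = 0.601), or 0.27 without replicate 4, and lay below 0 in 2 of 3 replicates at 18 h. The 0.27 came only from the array with tumour RNA in Cy5. The 0.56 averaged -0.02 with tumour RNA in Cy5 and 1.15 with it in Cy3.

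Among the cadherins, Cdh10, a type II cadherin of brain, had replicates on different sides of 0 at different times. Its ratios were -0.03, -0.003 and -0.13 at 18 h and -0.39 and -0.04 at 72 h, all below 0. At 192 h they were 0.68, 0.08 and 0.10, all above 0, with the highest in a polyA RNA sample of 1 dye orientation. The dye term moved the fitted value at 18 h to 0.04 (SE 0.15), against its replicates, and the value at 192 h was 0.19 (SE 0.15, adjusted p = 0.9996), or 0.09 without replicate 2 at 192 h. Over the 22 genes and 3 pairs of times, 2 of 66 pairs had replicates on opposite sides of 0 throughout, both of them Cdh10, against 1.77% of such pairs over all probes. The difference of 192 h minus 72 h was 0.41 (SE 0.23, adjusted p = 0.770) and that of 192 h minus 18 h was 0.16. Cdh13, the brightest of the family, had -0.96 in replicate 2 at 18 h and between -0.12 and 0.18 in the others.

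Pcdh8, a protocadherin known in rat to be induced by synaptic activity, had the lowest p of the 22 genes in the F-test over the 3 times. At 18 h its ratios were -0.35, -0.40, 0.009 and -0.08, and at 72 h they were 0.50 and 0.03. Of these, 0.50 became 0.02 without the array whose channels did not correlate. The 4 values at 192 h lay between -0.10 and 0.12. The F-test gave an unadjusted p of 0.0993 and an adjusted p of 0.902. A second probe of the gene gave the opposite sign at both early times, with mean ratios of 0.18 at 18 h and -0.02 at 72 h, so the probes of Pcdh8 disagree. The F-test called 0 of the 22 genes (0% of all probes), and 0 genes had an unadjusted p under 0.05 (3.54% of all probes). In the pairwise contrasts, Pcdh8 was the 1 gene of 22 past that unadjusted threshold between 72 and 18 h, with a difference of 0.47 (72 h over 18 h, SE 0.20, adjusted p = 0.732), beside 6.19% of all probes. Past it lay 0 genes between 192 and 18 h (2.18% of all probes) and 0 between 192 and 72 h (5.85%).

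The remaining genes tested stayed near 0 with replicates of both signs at most times. Pcdh1, a non-clustered protocadherin, had -0.61, -0.02, 0.007, -0.16 and -0.23 at 18 h, below 0 in 4 of 5 replicates, with a fitted value of -0.20 (SE 0.11, adjusted p = 0.871). It also lay below 0 in both replicates at 72 h, at -0.25 and -0.19, and on both sides of 0 at 192 h. Pcdha4 spread from -0.33 to 0.19 at 18 h, with a fitted value of 0.04 (SE 0.10).

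The type II cadherins Cdh8 and Cdh20 gave fitted values of -0.05 and 0.03 at 18 h and of -0.02 and 0.08 at 192 h. Cdh20 had -0.53 and 0.74 in 2 of its replicates at 192 h, and that spread was wider than any of its fitted values. Col13a1, a membrane-spanning collagen of the nerve-muscle synapse, had -0.20 and -0.22 at 72 h, with a fitted value of -0.21 (SE 0.15). Col6a2, a chain of type VI collagen, had fitted values between -0.09 and 0.02 at the 3 times, while its single arrays of total RNA ran from -0.50 to 0.69. Itgb1bp2, known from muscle, had -1.04 in replicate 3 at 18 h and between -0.08 and 0.28 in the others.

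**Figure D3:**
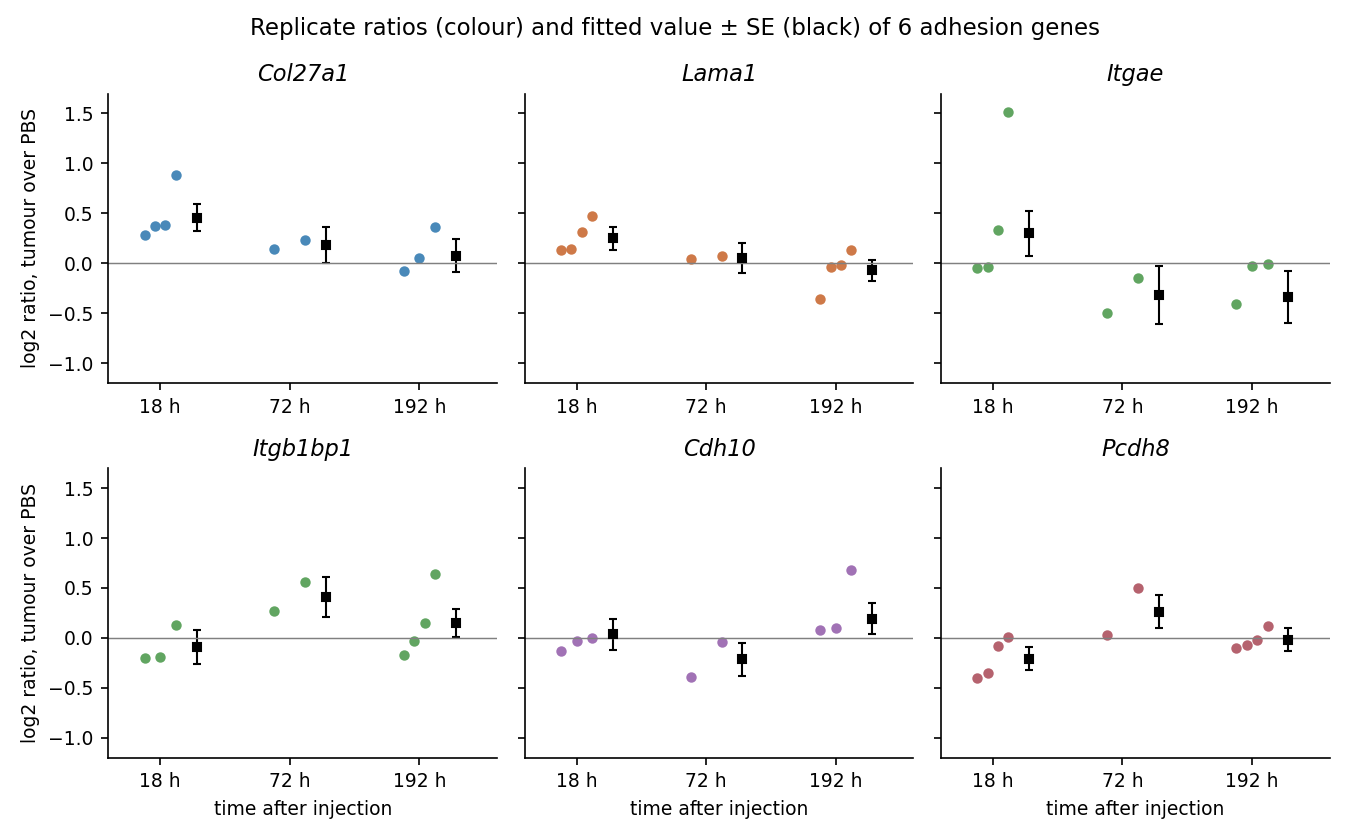
Log2 ratios of tumour over PBS at 18, 72 and 192 h for 6 adhesion genes. Coloured points are biological replicates (up to 5, 2 and 4), ordered by value within a time, and black squares with bars are the fitted value ± SE. The 4 values of Col27a1 at 18 h lie above 0, and Itgae reaches 1.52 in 1 replicate.

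**Figure D4:**
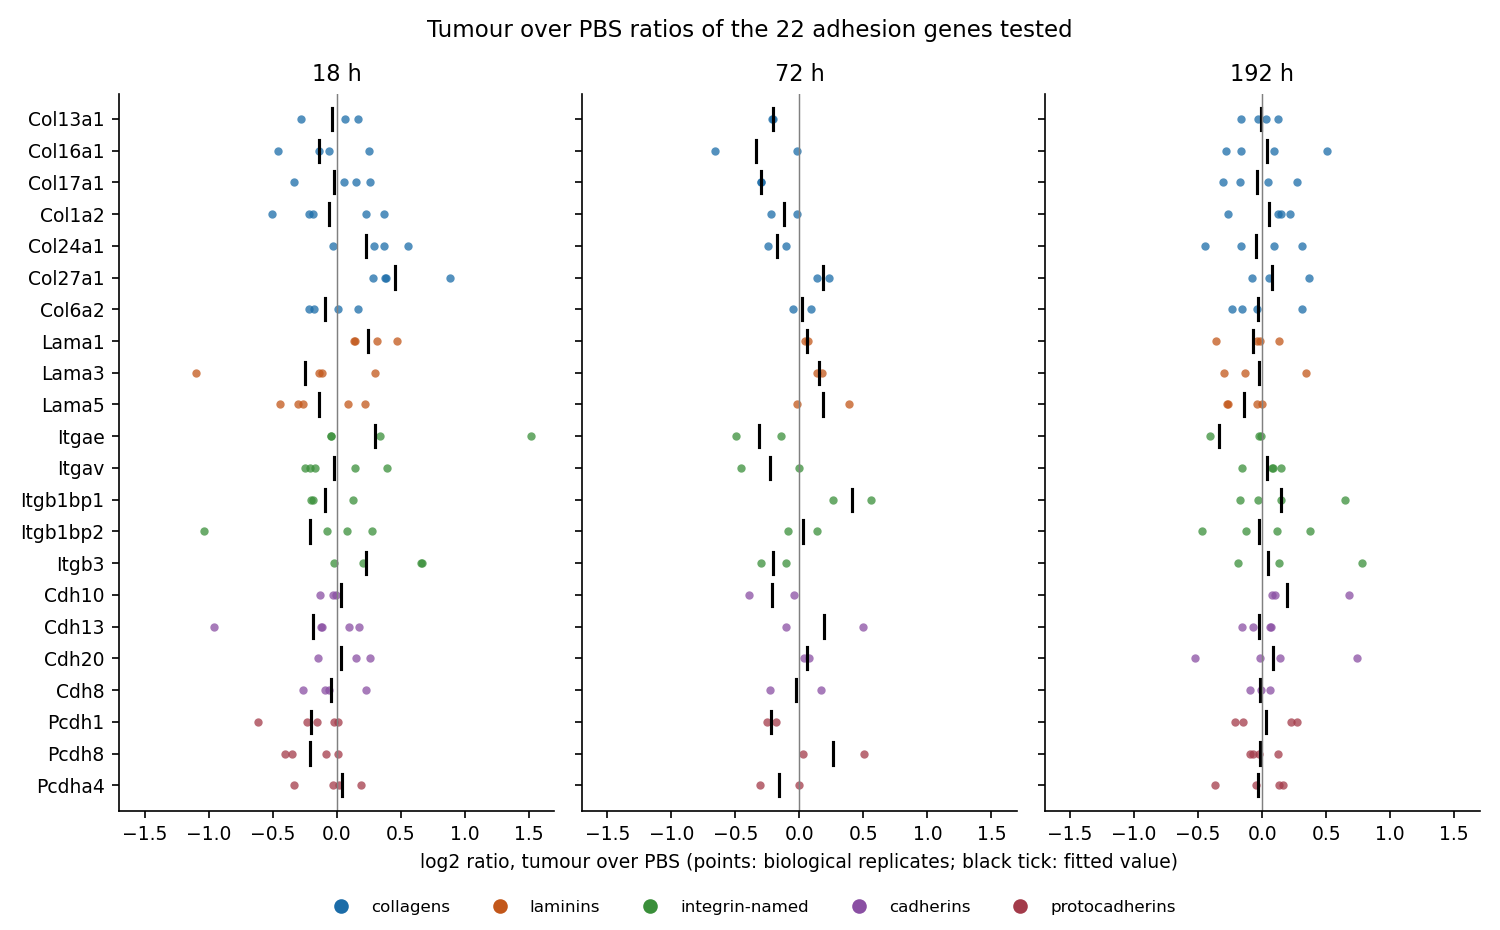
Log2 ratios of tumour over PBS for each of the 22 genes tested, with 1 panel per time. Points are biological replicates coloured by family and black ticks are fitted values. Replicates cross 0 for most genes at 18 and 192 h, and single replicates lie beyond -0.9 for Lama3, Itgb1bp2 and Cdh13.

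The 2 dye orientations of a replicate had the same sign for fewer than 1 in 2 ratios. The 7 replicates of total RNA gave 120 pairs of ratios of the 22 genes, 1 with tumour RNA in Cy5 and 1 with it in Cy3. Of these 120 pairs, 49 (40.8%) had the same sign, 23 above 0 and 26 below, against 41.2% of 24152 pairs over all probes. The 2 ratios of a pair differed by a median of 0.40 on the log2 scale. The dye term called 0 of the 22 genes, against 0.757% of all probes, and 2 of 22 had an unadjusted p under 0.05, against 13.5%.

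The dye term rests on the 4 replicates of polyA RNA. The replicates of total RNA enter it as 0, even for a gene with a value in only 1 orientation. In polyA RNA, replicate 1 had tumour RNA in Cy5 and replicate 2 had it in Cy3 at both times. Dye and replicate can therefore not be told apart in this term. Itgb3 had a dye term of -0.58 (SE 0.22, unadjusted p = 0.0270, adjusted p = 0.304). Its 2 values of 0.66 and 0.67 at 18 h both came from tumour RNA in Cy3. That of 0.67 was from replicate 3, of total RNA, so it did not inform the dye term and was not corrected by it. Pcdha4, a clustered protocadherin, had 0.30 (SE 0.12, adjusted p = 0.304), and Col24a1 had -0.27 (SE 0.14, adjusted p = 0.442). The pairs of total RNA arrays ran against both signs. Col24a1 was higher with tumour RNA in Cy5 in every pair, such as 0.61 against 0.13 in replicate 4 at 18 h. Pcdha4 was lower with tumour RNA in Cy5 in every pair except that of replicate 4 at 192 h. For Col27a1 at 18 h, the values in both orientations lay above 0 in the 2 replicates that had both: 0.58 and 1.19 in replicate 4 and 0.30 and 0.47 in replicate 5, with tumour RNA in Cy5 given first. For Lama1, replicate 4 gave 0.09 and 0.20 and replicate 5 gave 0.67 and -0.03, so 1 of its 4 values lay below 0. For Itgae at 18 h, replicates 3 and 4 gave 0.64 and -0.72, and 0.43 and -0.51, and replicate 5 gave 0.62 and 0.06.

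**Figure D5:**
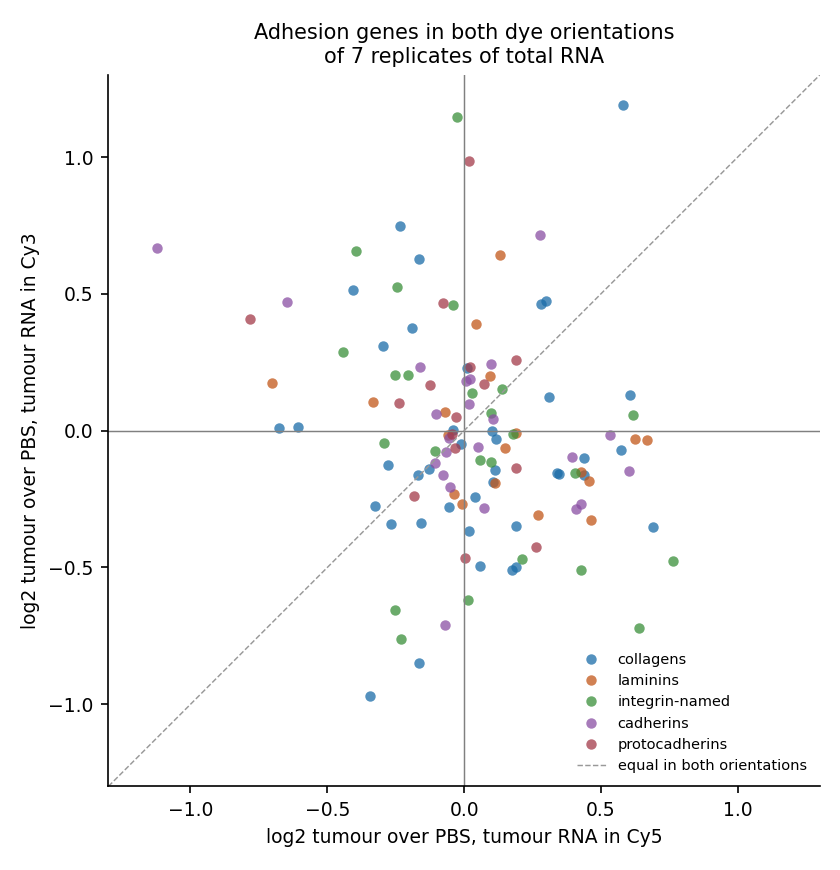
Log2 ratio of tumour over PBS of the adhesion genes on arrays with tumour RNA in Cy5 (horizontal) and in Cy3 (vertical), 120 pairs from 7 replicates of total RNA. The dashed line marks equal values. Points do not follow the line, and 49 of 120 pairs lie in the 2 quadrants of equal sign.

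The 54 genes that were not tested are given as values. Pcdh10, the second brightest of the 76, missed the filter because 1 of the 2 replicates at 72 h had a value. Its mean ratio was -0.04 ± 0.17 at 18 h (SD, n = 5), with replicates from -0.26 to 0.22, and 0.01 ± 0.34 at 192 h (SD, n = 3). Cdh5, the cadherin of vessel endothelium, had 0.19, 0.07, 0.08 and 0.42 at 18 h, all above 0, and between -0.46 and 0.48 at 192 h. The lowest single ratios of untested genes at 72 h were -4.73 for Col11a1, a chain of fibrillar type XI collagen, and -3.06 for Col9a2, a chain of type IX collagen. Both came from replicate 3, and the other replicate gave 0.31 for Col11a1 and no value for Col9a2. The other endothelial marker on the arrays, the transporter Slco1c1, had 0.36, -0.51, -0.23 and -0.05 at 18 h, with 3 of 4 below 0.

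Genes that make, cut or anchor the same structures were read from the same fit, in 5 lists. In limma's test, 0 of their 44 genes tested passed the adjusted p at any time. Past an unadjusted p of 0.05 lay 5 genes at 18 h, 4 genes at 72 h, and 0 genes at 192 h across these lists. Of 6 other extracellular matrix genes tested, 1 had an unadjusted p under 0.05: Bgn, which encodes the proteoglycan biglycan, lay below 0 in 5 of 5 replicates at 18 h, between -0.36 and -0.13, with a fitted value of -0.24 (unadjusted p = 0.0139). At 18 h 5.38% of all probes passed that threshold, and at 72 h 8.63% did. Of 16 matrix proteases and inhibitors, 2 passed it at 72 h: Reck, a membrane-bound inhibitor of matrix metalloproteinases, had 0.71 and 0.30, and P4ha2, a subunit of collagen prolyl hydroxylase, had 0.91 and 0.07.

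Of 6 catenins and junction adaptors, Jup (plakoglobin) passed the unadjusted threshold at 18 h, at 0.21, and of 9 focal adhesion and integrin signalling genes the kinase Fyn did, at 0.28. Of 7 immunoglobulin adhesion molecules, 2 passed it at 18 h (Vcam1 and Cntn3), 2 at 72 h (Chl1 and Cntn3) and 0 at 192 h. Vcam1, the vascular ligand of leukocyte integrins, had -0.29 at 18 h, and Chl1 had 0.41 at 72 h. Cntn3, a neuronal contactin, had 1.84 and 2.07 at 72 h, but its replicates at 18 h ran from -0.59 to 3.69 and those at 192 h from -1.59 to 2.18. Of the 12 marker lists for cell types and brain regions, 0 of 28 genes tested passed the adjusted p at any time. At an unadjusted p under 0.05 lay 1 of these 28 at 18 h (5.38% of all probes), 4 at 72 h (8.63%) and 1 at 192 h (1.05%). They were Nr4a2 (0.48) at 18 h, Pitx3 (0.56), Th (-0.38), S100b (0.33) and Cd79a (-0.48) at 72 h, and Th (0.26) at 192 h. At 72 h replicate 3 gave 0.96 (Pitx3), -0.48 (Th), 0.48 (S100b) and -0.74 (Cd79a), and replicate 4 gave 0.17, -0.28, 0.17 and -0.22. Replicate 3 holds the array whose channels did not correlate. The endothelial list had 2 of 8 markers on the arrays and none tested, and the red cell list had none on the arrays.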

How the data were processed

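The arrays were 2-colour oligonucleotide arrays printed in house, per the labels. The deposited scanner files hold an intensity for each spot and channel after subtraction of local background, per the file headers. The scanner's software was not given in the sources used here. The authors' deposited series matrix holds a score read as a log ratio of unstated base used only for comparison. Probes were named from the platform annotation, and the 7 arrays numbered below 309 were left out by the rule for these genes.

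The log2 ratios were normalized by loess within each scan in R 4.3.3 with limma 3.58.1 (span 0.3, 4 iterations), averaged over scans, spots and arrays of a replicate, and signed as tumour over PBS from the dyes in the labels. Probes among the dimmest 33.3% or with too few values were left out. limma fitted 3 time means and a dye term (7 residual and 4.60 prior degrees of freedom) with Benjamini-Hochberg adjustment at 0.05. The fit was tested on simulated data. Of several probes of a gene, that with most values was used. Precision is limited by the number of replicates.

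Named genes are the 4 with the lowest p per time among those of 1 sign in every replicate, the 3 lowest in the F-test and in the dye term, and the 2 brightest and dimmest tested per family; other genes were named after their values were seen. The members and lists were chosen with earlier results of these data known. Alternatives covered the filter, background, normalization, dye term, arrays, RNA type, authors' values, a replicate block and each replicate left out.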

Additional observations from a re-analysis of the deposited data

Results flagged for a closer look

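Single replicates stood apart in 3 of 44 groups checked with Dixon's test, where chance gives about 1 in 20, or 2.2 groups. Col27a1 at 18 h was 0.885 in replicate 4, while the other 3 replicates lay between 0.286 and 0.387. Cdh13 at 18 h was -0.961 in replicate 2, a polyA RNA sample, while the other 4 lay between -0.118 and 0.177. The median of the laminin members at 192 h was -0.296 in replicate 1, also a polyA RNA sample, while the other 3 lay between -0.038 and -0.015.

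Over the 22 genes and 3 pairs of times, 2 had replicates on opposite sides of 0 throughout, both for Cdh10, or 2 of 66 against 1.77% of pairs over all probes. Every replicate lay above 0 at 192 h and below 0 at 18 h and at 72 h. The fitted value at 192 h exceeded that at 18 h by 0.156 and that at 72 h by 0.408, and neither passed limma's test after adjustment.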

How the results depend on the processing

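The count of adhesion genes called was 0 at each time, for the mean of the times and between times under every alternative run. Without replicate 4 at 72 h some probes were called at 72 h, for the mean and between times. That fit assumes that the lone replicate varies like the others, so their number is not given. The median ratio of the genes at 72 h was then -0.09. The median ratio of the genes changed sign in some settings: at 72 h it was 0.05 with dim probes kept and 0.02 without the array whose channels did not correlate, and at 18 h it was 0.003 without background subtraction, 0.01 with median centring, 0.01 with the authors' values and 0.01 with total RNA only, and at 192 h it was 0.02 without background subtraction and 0.03 with median centring. Each of these lay within the spread between replicates. Leaving out each replicate in turn gave medians of -0.11 to 0.02 at 18 h, -0.09 to -0.02 at 72 h and -0.02 to 0.02 at 192 h, and a brightness rank of 35.3 to 39.9.

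Cdh10 at 18 h turned negative in several settings. It was -0.0129 without background subtraction, -0.0467 with median centring, -0.0466 with the authors' values, -0.0546 with no dye term and -0.0662 with total RNA only. Over the replicates left out in turn it ran from -0.0662 to 0.157, and it was negative without replicate 1 at 18 h and without replicate 2 at 192 h. Cdh10 at 192 h was -0.0023 with the authors' values. The dye term of Pcdha4 was -0.91 with median centring (adjusted p = 0.0454) and -0.14 with the authors' values, and that of Col24a1 was -0.70 with median centring (adjusted p = 0.0345). The cause was not tested. Col27a1 at 18 h stayed above 0 throughout, from 0.25 without background subtraction to 0.53, and was 0.16 on the unsettled scale of the authors' values. On that scale Col17a1 at 72 h was -0.01.

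With the replicate number as a block the F-test between times called 0 genes. The numbers were not taken to pair the samples, since not every pair was over 0.1: the 8 same-numbered pairs had correlations of deviations from -0.124 to 0.331, with 5 over 0.1, against a median of -0.0427 for other pairs. Of 10 samples with a same-numbered one, 6 correlated best with it. The same-numbered pairs of polyA RNA, at 0.178 and 0.331, also shared their dye orientation, so number and dye cannot be told apart there. With 2 replicates at 72 h, the correlations of 1 mirror those of the other and are not independent. With 2 replicates at 72 h and 1 dye orientation in each polyA RNA replicate, small ratios of dim spots could not be resolved.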
